A study of Mus musculus with 10 samples.

Results

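Somatostatin interneuron nuclei (SST nuclei below) were described in single-nucleus RNA-seq of the adult mouse hippocampus. They were the barcodes with at least 500 unique molecular identifiers (UMIs, which count captured RNA molecules) that held at least 2 UMIs of Gad1 and Gad2 together and at least 2 UMIs of Sst, at least 1 UMI of Nxph1 and Lhx6 together, more of these than of Adarb2, and no UMI of Zic1. The rule took 106 of the 15560 barcodes with at least 500 UMIs, of 15661 in all, a share of 0.681% (exact 95% Clopper-Pearson interval 0.558 to 0.823%). The labels give 10 samples of 1 group: hippocampus from unstimulated mice of strain C57B/6J, genotype WT, 4 to 7 months old, with frozen tissue and nuclei sorted on the DNA dye 7AAD. No sample is a mutant, and the labels title 4 of the 10 as controls of an RNASET2 study. The deposited matrix pools them under 7 barcode suffixes, called barcode sets here, which no label ties to a sample, so the nuclei were treated as 1 pooled sample. Nuclei are not replicates, and no difference below was tested across samples. Each ratio is followed in brackets by its 95% interval, computed exactly from the 2 Poisson counts, which covers counting error only, as do the intervals of shares.

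Hippocampal somatostatin interneurons are inhibitory neurons born in the medial ganglionic eminence (MGE), an embryonic zone whose cells switch on Lhx6 and then Sox6 and Satb1. The best known are the O-LM cells of stratum oriens and the HIPP cells of the dentate hilus, whose axons contact the distal dendrites of principal cells where entorhinal input arrives. Their excitatory inputs are known for facilitating with repeated spikes, a property that depends on Elfn1 at the synapse. The peptide somatostatin is cut from a precursor, packed into dense-core vesicles and acts on inhibitory G-protein-coupled receptors.

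The SST nuclei held 1070352 UMIs in all, with a median of 8010 per nucleus (1667 to 85729) and a median of 3088.5 genes. Levels are given as CPM, UMIs of a gene per 1000000 UMIs summed over the nuclei of a class. They were set against 3 other classes. MGE-type nuclei without Sst, also called Sst-negative nuclei (587 nuclei, median 7931 UMIs) met the same rule except that they had no Sst UMI. Adarb2 inhibitory nuclei, or Adarb2 nuclei (605 nuclei, median 8746 UMIs) had at least 2 Gad1 and Gad2 UMIs, fewer than 2 Sst UMIs, at least 2 Adarb2 UMIs and more of Adarb2 than of Nxph1 and Lhx6; they stand for interneurons of caudal (CGE) type. Excitatory nuclei (3261 nuclei, median 10449 UMIs) had at least 2 Slc17a7 UMIs and no Gad1 or Gad2 UMI. Sets 5 and 6 were shallow, with median depths of 2647 and 2308 UMIs per SST nucleus, against 7951 to 10457 in sets 1 to 4, so that 1 UMI weighs more there. Of the barcode sequences, 21 occurred under more than 1 suffix, among them that of 1 SST nucleus. Doublets were not removed: Scrublet called 1 of the 106 SST nuclei, and it called fewer than 0.5% of barcodes in sets 2, 5 and 7, where it cannot be relied on.

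Sst itself chose the members, so its values are a description. The 106 nuclei held 398 Sst UMIs, or 372 CPM, and 43 of them had exactly 2, 27 had 3 and 36 had 4 or more, up to 19. By set, from 1 to 6, Sst came to 804, 257, 204, 259.5, 740.0 and 1203 CPM. The highest levels were in set 1, where 4 nuclei had 10 or more UMIs, and in the shallow sets 5 and 6, where a floor of 2 UMIs is a larger part of a nucleus. Among excitatory nuclei, which should lack the transcript, 5.18% held an Sst UMI, none more than 3.

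**Figure D1:**
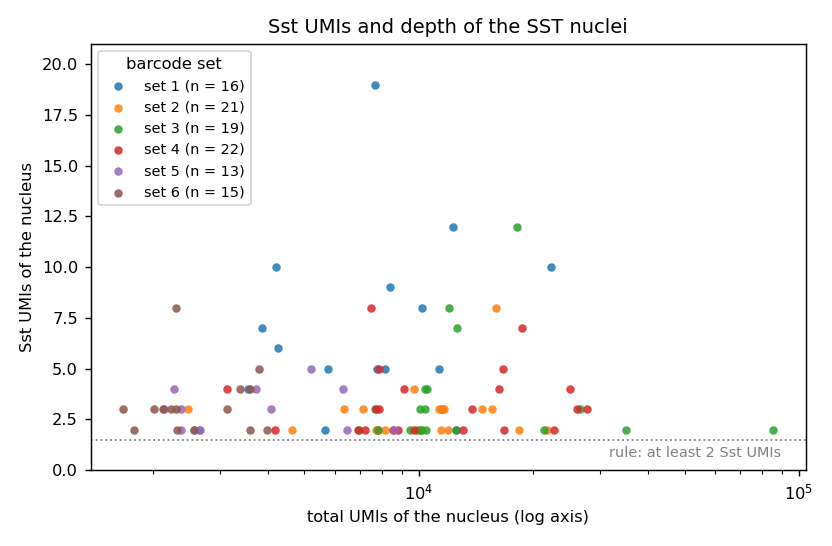
Sst UMIs (vertical axis) against total UMIs (horizontal axis, log scale) for each of the 106 SST nuclei, coloured by barcode set. Counts run from the floor of 2 to 19, and the nuclei of sets 5 and 6 lie at the shallow end.

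The start of Sst carries the cAMP response element through which the gene's classical regulation by CREB was worked out, and the same 8 letters lie before the start of Pcsk1, a protease that cuts prohormones, and Scg2, a granin of dense-core vesicles. Both encode parts of the machinery that makes or stores the peptide, and their levels are given below. The 150 bases before the RefSeq start of each follow, 5′ to 3′ on the gene's strand in build GRCm38.p6, with TGACGTCA in capitals; Npy, another peptide gene expressed in these nuclei, has no such match and is shown for comparison.
Sst (chr16:23890845-23890994, minus strand): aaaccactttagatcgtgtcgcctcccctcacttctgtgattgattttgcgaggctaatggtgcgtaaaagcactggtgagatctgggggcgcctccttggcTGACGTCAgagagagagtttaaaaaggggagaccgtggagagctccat
Pcsk1 (chr13:75089707-75089856, plus strand): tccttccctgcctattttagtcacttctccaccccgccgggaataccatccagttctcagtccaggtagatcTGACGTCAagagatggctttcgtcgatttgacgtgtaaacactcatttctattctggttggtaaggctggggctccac
Scg2 (chr1:79440027-79440176, minus strand): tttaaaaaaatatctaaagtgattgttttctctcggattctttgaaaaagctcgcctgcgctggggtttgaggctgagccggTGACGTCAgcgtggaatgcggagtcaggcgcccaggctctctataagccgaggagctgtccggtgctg
Npy (chr6:49822560-49822709, plus strand): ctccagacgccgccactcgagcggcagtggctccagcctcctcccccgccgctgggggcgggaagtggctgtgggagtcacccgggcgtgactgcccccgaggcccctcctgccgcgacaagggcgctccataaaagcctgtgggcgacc
The match lies 48 to 41 bases before the start in Sst, 78 to 71 bases before it in Pcsk1 and 68 to 61 bases before it in Scg2. In GENCODE M21 all 3 genes begin farther upstream, inside the stretch shown, so that the match lies within the annotated gene in Sst and Scg2 and before it in Pcsk1. TGACGTCA reads the same on both strands, and it was found in the 250 bases before the start in 508 of 32851 RefSeq promoters (1.55%). Counted by gene, 478 of 27025 genes with a promoter held it (1.77%). Of 25 peptide and peptide-processing genes with a promoter in the RefSeq table, 31 being listed, 5 held it: Cartpt, Chgb, Pcsk1, Scg2 and Sst. These are matches of letters in the sequence, and binding was not measured.

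The members were spread over 6 of the 7 sets. Sets 1 to 6 held 16, 21, 19, 22, 13 and 15 SST nuclei, or 0.528, 0.743, 0.811, 1.05, 0.585 and 0.629% of their barcodes, with intervals that overlap. Set 7 held 0 of 666 barcodes, which allows a share of up to 0.450%; it also held 1 MGE-type nucleus without Sst and 2 excitatory nuclei. As a share of the 1884 barcodes with at least 2 Gad1 and Gad2 UMIs, SST nuclei made up 5.63% (4.63 to 6.76%), from 2.80% in set 1 to 10.2% in set 6. The interval of set 1 (1.61 to 4.503%) lay below those of set 4 (6.01 to 13.9%) and set 6 (5.82 to 16.3%). It overlapped those of sets 2, 3 and 5, and the cause of this difference was not tested. As a share of the 804 barcodes of MGE type SST nuclei made up 13.2% (10.9 to 15.7%), from 10.8% in set 2 to 19.5% in set 4. For this share the intervals of sets 1 to 6 overlapped.

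Just outside the rule lay 111 nuclei with 1 Sst UMI that met all its other terms. Synpr, for example, was at 1343 CPM in all SST nuclei, 1174 CPM in those with exactly 2 Sst UMIs, 951 CPM in the nuclei with 1, and 245 CPM in those with none. In the same order Pde11a was at 14.0, 28.9, 138 and 324 CPM. Most of the 30 genes set out this way were chosen from these data for their extreme ratios between SST nuclei and nuclei without Sst. That choice favours a place between for nuclei with 1 Sst UMI, so the count is a description and no test. Adamts19 was counted as between at 4.28 CPM, against 4.01 CPM in nuclei with none, although nuclei with exactly 2 Sst UMIs were at 2.06 CPM. The nuclei with 1 Sst UMI stood between the members and the nuclei without Sst in 27 of the 30 genes. The exceptions were Tll1, at 23.4 CPM in all SST nuclei, 272 CPM in the nuclei with 1 Sst UMI and 163 CPM in those with none, Sox6, at 444, 317 and 356 CPM, and Maf, at 423, 443 and 313 CPM.

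The class carried the transcription factors of its lineage. Sox6, a transcription factor that places MGE interneurons, was at 444 CPM in SST nuclei, against 356 CPM in MGE-type nuclei without Sst, 85.1 CPM in Adarb2 inhibitory nuclei and 7.30 CPM in excitatory nuclei. Its ratio to Adarb2 nuclei was 5.22, and 13.5 without set 1 or 3.41 without set 2. Satb1, which acts in the maturation of SST cells, was at 291 CPM in SST nuclei, against 157 CPM in MGE-type nuclei without Sst, 44.7 CPM in Adarb2 inhibitory nuclei and 62.6 CPM in excitatory nuclei. Pvalb, the marker of the other large MGE class, had 3 UMIs in 3 SST nuclei. For other cell types, the summed level of 9 oligodendrocyte markers was 577 CPM in SST nuclei, against 451 CPM in MGE-type nuclei without Sst; by set it ran from 49.1 to 1537 CPM in SST nuclei and from 102 to 1424 CPM in Sst-negative nuclei. In the SST nuclei 5 nuclei held 86.4% of these 618 UMIs and 54 had none. The 10 excitatory markers summed to 578 CPM in SST nuclei, against 552 CPM in Sst-negative nuclei (466 to 617 by set in SST nuclei, 486 to 768 in Sst-negative nuclei). In excitatory nuclei they summed to only 960 CPM, so the sum separates the classes weakly. Gene by gene, 8 of the 10 were at least 2-fold lower in SST than in excitatory nuclei and 1 was higher, beside 12.8% and 10.0% of all genes. The list holds Slc17a7, which chose the excitatory nuclei. Slc17a6 and Tbr1 were at 0 in SST nuclei, and 4 members had at least 2 Slc17a7 UMIs. Of 13 markers of inhibitory neurons of other regions, Zic1 had to be 0 by the rule, and the other 12 summed to 204 CPM in SST nuclei, against 306 CPM in Sst-negative nuclei, with Zic4, Isl1, Ppp1r1b, Otp and Six3 at 0 in SST nuclei, and the 5 vascular markers were all at 0 in SST nuclei, against 2.67 CPM in Sst-negative nuclei. Precursor markers summed to 58.9 CPM in SST nuclei, against 103 CPM in Sst-negative nuclei. Astrocyte markers summed to 64.5 CPM in SST nuclei, with Gja1 and Gfap at 0, against 73.9 CPM in Sst-negative nuclei, and microglia markers to 233 CPM in SST nuclei, against 203 CPM in Sst-negative nuclei. Members in set 3 with over 30000 UMIs numbered 2 and held 11.3% of all UMIs of the class; they had 72 and 61 UMIs of Adarb2. The ratios without the 5 nuclei richest in oligodendrocyte UMIs, and without these 2, are set out after the comparison with excitatory nuclei.

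Against their nearest relatives, the MGE-type nuclei without Sst, the SST nuclei held more RNA of Synpr, Elfn1, Trpc6 and Reln and of 9 of 31 glutamate receptor genes, and less of Erbb4, Gabrg3, Cacna2d1 and Lamp5. Of 9630 genes with at least 50 UMIs over both classes, 167 (1.73%) were at least 2-fold higher and 418 (4.34%) lower to the same degree in SST nuclei; the median log2 ratio of all genes was -0.05. Genes among the 12 with the highest and the 12 with the lowest ratios by the near bound of the interval are described next, ordered by what they do. These had to lie on the same side of 1 in sets 2 and 4, where both classes had 20 or more nuclei. Their agreement in those 2 sets was therefore fixed by the choice.

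Synpr encodes synaptoporin, a synaptic vesicle protein of the synaptophysin family, known in the hippocampus from mossy fibres and some interneurons. By set, from 1 to 6, it was at 1235, 1514, 1324, 1329, 1052 and 1375 CPM in SST nuclei, against 93.1, 320.3, 334, 198, 186 and 291 CPM in MGE-type nuclei without Sst. The lowest SST value stood above the highest of the other class, and the pooled ratio was 5.47 (5.07 to 5.91). A Synpr UMI was present in 95 of 106 SST nuclei (89.6%), against 206 of 587 Sst-negative nuclei (35.1%), and in 49.3% of excitatory nuclei. After each nucleus was thinned to 2000 UMIs, the shares were 80.8% of SST nuclei, 18.8% of Sst-negative nuclei and 30.7% of excitatory nuclei.

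Elfn1, the postsynaptic adhesion protein that recruits presynaptic mGluR7 and sets the facilitation of inputs to these cells, was at 194, 181, 122, 224, 77.9 and 123 CPM in SST nuclei, against 24.6, 60.0, 53.8, 25.2, 47.3 and 55.5 CPM in Sst-negative nuclei. The sets did not overlap, and the ratio was 3.82 (3.12 to 4.65). Elfn1 was lower still elsewhere, at 24.7 CPM in Adarb2 inhibitory nuclei and 5.08 CPM in excitatory nuclei. Trpc6, a calcium-permeable channel of the receptor-operated kind, was at 539 CPM in SST nuclei, against 131 CPM in Sst-negative nuclei, ratio 4.11 (3.68 to 4.60), with 266 to 837 CPM by set in SST nuclei and 66.6 to 188 CPM in the others.

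**Figure D2:**
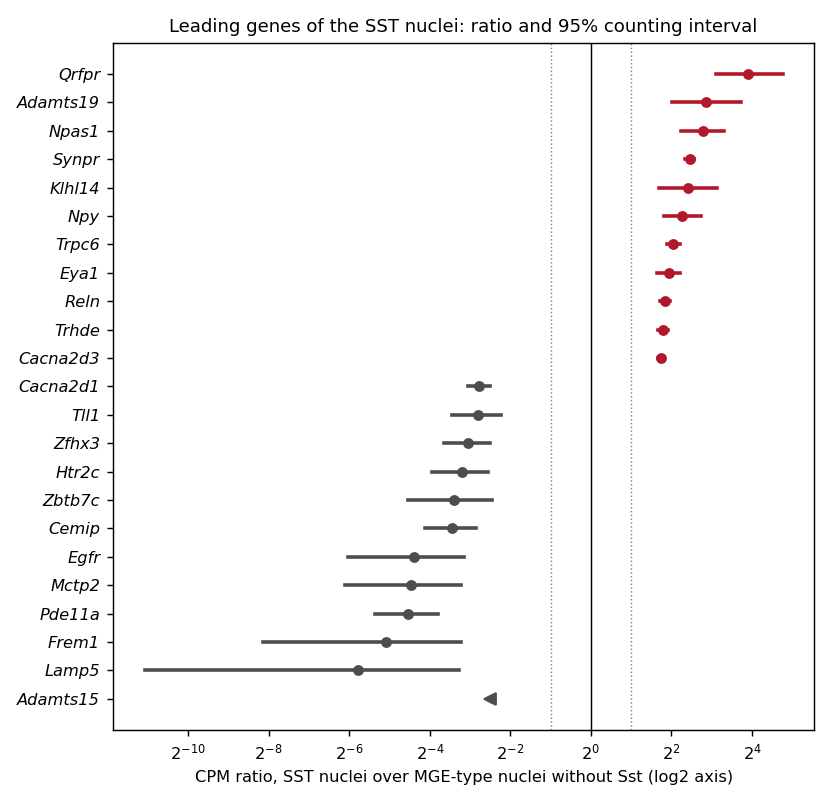
Ratio of CPM in SST nuclei to MGE-type nuclei without Sst (horizontal axis, log2 scale) for 23 of the genes chosen by the size rule, with points for pooled ratios and bars for exact 95% counting intervals. Qrfpr lies farthest above 1 at 14.9, and the arrow for Adamts15, with no UMI in SST nuclei, marks a bound.

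Reln encodes reelin, a secreted glycoprotein that in the adult hippocampus comes mainly from interneurons. Its levels by set were 775, 1000.4, 323, 1417, 721 and 1178 CPM in SST nuclei, against 203, 211, 384, 137, 189 and 365 CPM in MGE-type nuclei without Sst. In 5 sets the SST nuclei were higher, while set 3 ran the other way, and the class ranges overlap. The pooled ratio was 3.59 (3.29 to 3.91), and 5.57 without set 3. A Reln UMI was found in 81 SST nuclei (76.4%), against 180 (30.7%) of the others and 8.13% of excitatory nuclei.

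Npas1, a bHLH-PAS transcription factor, was at 79.0, 84.1, 24.4, 63.1, 195 and 196 CPM by set in SST nuclei, against 8.21, 8.57, 10.8, 6.01, 11.8 and 41.6 CPM in MGE-type nuclei without Sst, a ratio of 6.83 (4.73 to 9.91). It was higher in SST nuclei within each of the 6 sets, although the class ranges overlap. Npas1 is usually counted among markers of CGE interneurons, and here it was at 69.1 CPM in SST nuclei, against 55.7 CPM in Adarb2 nuclei, ratio 1.24 (0.950 to 1.60), an interval that includes 1. Its paralogue Npas3 was at 1981 CPM in SST nuclei, against 689.8 CPM in MGE-type nuclei without Sst, a ratio of 2.87 (2.72 to 3.03), with SST nuclei higher in 6 of 6 sets. Eya1, a transcriptional coactivator with phosphatase activity, was at 178 CPM in SST nuclei, against 46.8 CPM in Sst-negative nuclei, ratio 3.81 (3.14 to 4.63), and higher in 6 of 6 sets.

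Cacna2d3, an auxiliary alpha2-delta subunit of voltage-gated calcium channels, was at 1859, 3081, 2062, 3472, 1947 and 2406 CPM by set in SST nuclei, against 638, 897, 960.2, 648, 552 and 744 CPM in MGE-type nuclei without Sst, with no overlap and a ratio of 3.35 (3.19 to 3.52). Its paralogue Cacna2d1 went the other way, at 7.18, 53.1, 247, 17.5, 331 and 0 CPM in SST nuclei, against 639, 737, 707, 935, 585 and 999 CPM in Sst-negative nuclei, a ratio of 0.147 (0.121 to 0.176). Cacna2d1 was lower in SST nuclei in 6 of 6 sets, and most of what was present came from sets 3 and 5: the ratio was 0.0630 without set 3 and 0.0741 without the 2 members of over 30000 UMIs. SST nuclei thus paired a high level of one alpha2-delta gene with a low level of another, each relative to the other MGE-type nuclei.

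**Figure D3:**
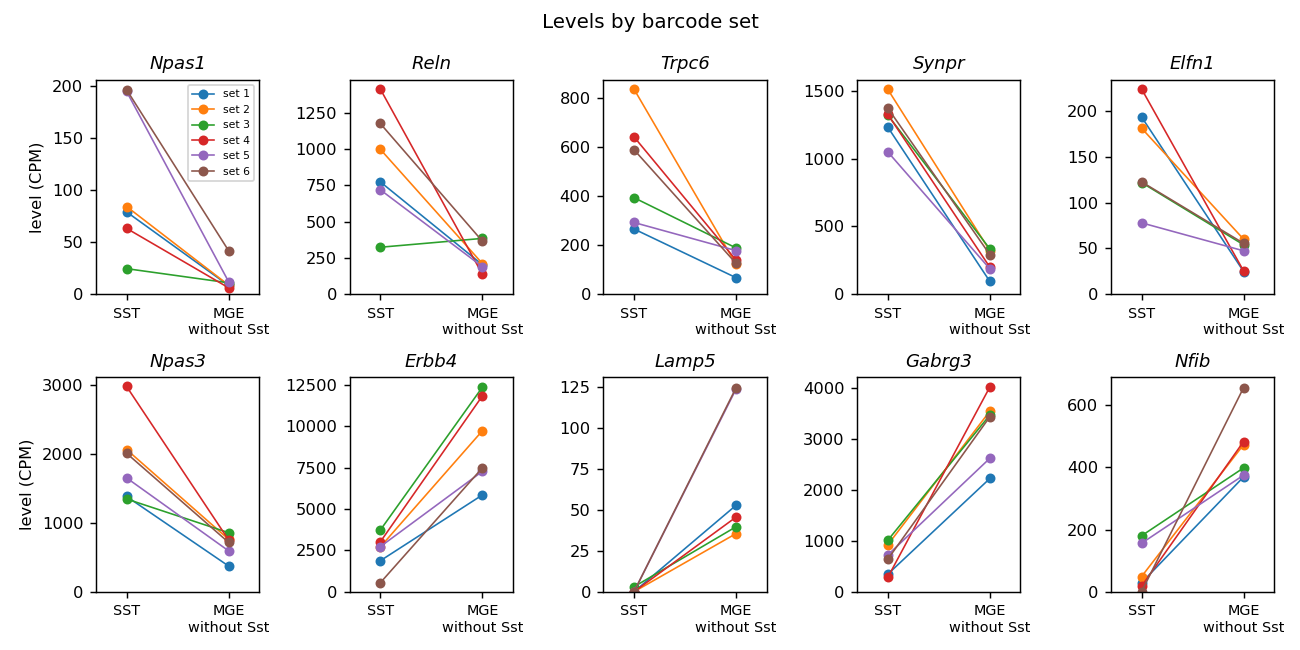
CPM in each of barcode sets 1 to 6 in SST nuclei (left points) and MGE-type nuclei without Sst (right points) for 10 genes, with a line joining the values of a set and each vertical axis on its own linear scale from 0. SST values stand above all values of the other class for Synpr, Trpc6 and Elfn1, and below them for Gabrg3 and Erbb4, while Reln shows 1 set, set 3, in which they do not.

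The remaining genes of the higher group were of lower level or rested on fewer nuclei. Trhde, an ectopeptidase that degrades thyrotropin-releasing hormone, was at 780.1 CPM in SST nuclei, against 227 CPM in Sst-negative nuclei, ratio 3.44 (3.15 to 3.76). Klhl14, a Kelch-family adaptor, was at 34.6 CPM in SST nuclei, against 6.50 CPM in Sst-negative nuclei, ratio 5.32 (3.25 to 8.74), from 20 nuclei. Qrfpr, the receptor of the RF-amide peptide QRFP, had the highest ratio, with 51.4 CPM in SST nuclei, against 3.44 CPM in Sst-negative nuclei, ratio 14.9 (8.64 to 27.0), but its 55 UMIs came from 14 of 106 SST nuclei and 13 of them from 1 nucleus. Adamts19, a secreted protease, was at 29.0 CPM in SST nuclei, against 4.01 CPM in Sst-negative nuclei, ratio 7.22 (4.02 to 13.2), from 7 nuclei, 1 of which held 19 of the UMIs. The values of Qrfpr and Adamts19 therefore describe a few nuclei and not the class. Npy is taken up with the peptides below.

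Among the 12 genes at the low end were Lamp5, Egfr and Pde11a, each with few UMIs in SST nuclei. Lamp5, a lysosome-associated membrane protein that marks neurogliaform cells, had 1 UMI in SST nuclei (0.934 CPM), against 51.0 CPM in MGE-type nuclei without Sst, a ratio of 0.0183 (0.000462 to 0.103); that UMI was in set 3. Egfr, the epidermal growth factor receptor, was at 4.67 CPM in SST nuclei, against 98.2 CPM in Sst-negative nuclei, a ratio of 0.0476 (0.0154 to 0.112); without set 2 it was 0.0117. Both were also low relative to Adarb2 inhibitory nuclei, where Lamp5 stood at 28.5 CPM and Egfr at 96.8 CPM. Pde11a, a phosphodiesterase of cAMP and cGMP, was at 14.0 CPM in SST nuclei, against 324 CPM in Sst-negative nuclei, and 14 of its 15 SST UMIs lay in 1 nucleus of set 2: the ratio was 0.0432 with set 2 and 0.00372 without it.

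Htr2c, the serotonin 2C receptor, was at 17.8 CPM in SST nuclei, against 163 CPM in Sst-negative nuclei, ratio 0.109 (0.0651 to 0.171). Cemip, a hyaluronan-binding protein, was at 21.5 CPM in SST nuclei, against 235 CPM in Sst-negative nuclei, ratio 0.0913 (0.0577 to 0.138), or 0.0514 without set 3, and Tll1, an astacin-family protease, at 23.4 CPM in SST nuclei, against 163 CPM in Sst-negative nuclei, ratio 0.143 (0.0921 to 0.213). Adamts15 had no UMI in SST nuclei, against 84 UMIs (16.05 CPM) in MGE-type nuclei without Sst, at least 5.73-fold lower with 3 counts as the limit. All 4 were lower in SST nuclei. Zfhx3, a zinc finger homeobox factor, was at 25.2 CPM in SST nuclei, against 208 CPM in Sst-negative nuclei, ratio 0.121 (0.0794 to 0.177), but this rests on where it was counted: the ratio was 0.269 without set 1 and 0.0207 without set 3. Mctp2, a calcium-binding membrane protein, was at 4.67 CPM in SST nuclei, against 103 CPM in Sst-negative nuclei (ratio 0.0227 without set 2 and 0.0747 without set 3), Frem1, an extracellular matrix protein, at 1.87 CPM in SST nuclei, against 63.4 CPM in Sst-negative nuclei (2 UMIs in SST nuclei, none left without set 2, and ratio 0.0540 without set 3), and Zbtb7c at 8.41 CPM in SST nuclei, against 89.0 CPM in Sst-negative nuclei (ratio 0.0535 without set 5). The direction of these 4 genes was toward lower levels in SST nuclei under each of those settings.

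Among peptide genes, Npy stood out by how unevenly it was spread over the sets. Npy, encoding neuropeptide Y, was at 395, 8.85, 21.3, 31.6, 117 and 0 CPM by set in SST nuclei, against 27.4, 5.27, 9.94, 9.62, 32.5 and 50.9 CPM in MGE-type nuclei without Sst. Set 1 held most of it, set 6 had none, and the classes overlap. The pooled ratio of 4.83 (3.49 to 6.67) was 2.13 without set 1. Npy was seen in 28 of 106 SST nuclei (26.4%), against 7.16% of the MGE-type nuclei without Sst and 1.63% of excitatory nuclei, and after thinning the shares were 9.62% of SST nuclei, 2.69% of Sst-negative nuclei and 0.280% of excitatory nuclei. Cort, encoding cortistatin, a peptide close to somatostatin, was seen in 14 SST nuclei (13.2%), against 2.73% of Sst-negative nuclei and 0.307% of excitatory nuclei; with 17 UMIs it was too rare for the count minimum.

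Other peptides were scarce. Tac1, the precursor of substance P, had UMIs in 8 SST nuclei, Pnoc, the precursor of nociceptin, in 7, Crh in 4, Penk in 2, and Vip and Pdyn in 1 each. Cck, the cholecystokinin gene, had UMIs in 14 (13.2%), below the 34.5% of excitatory nuclei, where the gene is expressed. Of 18 listed peptide genes 5 passed the count minimum without the rule gene Sst. Against MGE-type nuclei without Sst, 1 (Npy) was at least 2-fold higher and 2 (Pnoc and Cartpt) lower to the same degree. The shares among all genes were 1.73% higher and 4.34% lower. Pnoc was at 8.41 CPM in SST nuclei, against 17.8 CPM in Sst-negative nuclei, ratio 0.473 (0.210 to 0.938), but 0.543, 0.571 and 0.530 without set 2, 3 or 4. Cartpt, the precursor of the CART peptides, was at 3.74 CPM in SST nuclei, against 9.93 CPM in Sst-negative nuclei, ratio 0.376 (0.0988 to 1.02), on 4 UMIs and with an interval that includes 1.

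Of 13 genes that make, store or bind peptides, 2 were at least 2-fold higher and none lower in SST nuclei than in Sst-negative nuclei. Among all genes 1.73% were higher and 4.34% lower to that degree. The median log2 ratio of the 13 was -0.07, beside -0.05 for all genes. Pcsk1, the prohormone convertase, was at 115, 26.6, 18.3, 24.5, 97.4 and 24.5 CPM by set in SST nuclei, against 20.1, 10.5, 8.28, 15.6, 20.7 and 13.9 CPM in MGE-type nuclei without Sst. It was higher in each of the 6 sets, with overlapping class ranges and a ratio of 2.82 (1.87 to 4.21). Crhbp, which binds and sequesters corticotropin-releasing hormone, was the other: 55.1 CPM in SST nuclei, against 24.1 CPM in Sst-negative nuclei, ratio 2.29 (1.65 to 3.14). Scg2 was lower, at 36.4 CPM in SST nuclei, against 67.1 CPM in Sst-negative nuclei, ratio 0.543 (0.380 to 0.758), short of 2-fold. Pcsk1 and Scg2, both with the 8-letter match shown above, thus stood on opposite sides of 1. Pam, the enzyme that amidates peptides, was at 1142 CPM in SST nuclei, against 986 CPM in Sst-negative nuclei, ratio 1.16 (1.09 to 1.23), and it differed from Adarb2 inhibitory nuclei with 1142 CPM in SST nuclei, against 539 CPM in Adarb2 nuclei, ratio 2.12 (1.98 to 2.26), or 1.94 without set 1.

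Receptors for the peptide were sparse in every class. Sstr1 stood at 3.74 CPM in SST nuclei, 1.34 in MGE-type nuclei without Sst, 1.19 in Adarb2 inhibitory nuclei and 1.06 in excitatory nuclei. Sstr2 stood at 7.47, 4.78, 8.35 and 7.35 CPM. Sstr3, Sstr4 and Sstr5 had no UMI in SST nuclei, where 3 counts correspond to 2.80 CPM; Sstr3 was at 3.10 CPM and Sstr4 at 2.14 CPM in excitatory nuclei, so a difference from SST nuclei was hardly detectable at this depth. Npy1r, a receptor of neuropeptide Y, was at 3.74 CPM in SST nuclei, against 31.0 CPM in Adarb2 inhibitory nuclei and 18.7 CPM in excitatory nuclei, at least 2-fold lower against both. Oprd1, the delta opioid receptor, went the other way, at 74.7 CPM in SST nuclei, against 72.4 CPM in MGE-type nuclei without Sst, 21.3 CPM in Adarb2 inhibitory nuclei and 5.99 CPM in excitatory nuclei.

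Of 31 genes of glutamate receptors and their auxiliary subunits, 9 were at least 2-fold higher in SST nuclei than in MGE-type nuclei without Sst and none was lower to that degree, beside 1.73% and 4.34% of all genes, and their median log2 ratio was 0.45 beside -0.05. They included Neto1, Grik3, Grin3a, Shisa6, Cacng3, Cacng4, Grm7 and Grm8. Neto1, an auxiliary subunit that slows kainate receptors, was at 1237 CPM in SST nuclei, against 393 CPM in Sst-negative nuclei, ratio 3.14 (2.93 to 3.37). Grik3, a kainate receptor subunit, was at 338 CPM in SST nuclei, against 149 CPM in Sst-negative nuclei, ratio 2.28 (2.003 to 2.58). Grin3a, an NMDA receptor subunit that lowers calcium entry, was at 538 CPM in SST nuclei, against 208 CPM in Sst-negative nuclei, ratio 2.58 (2.33 to 2.86). All 3 were higher in 6 of 6 sets and stayed past 2-fold without any 1 set. Shisa6, which keeps AMPA receptors from desensitizing, was at 1048 CPM in SST nuclei, against 359.7 CPM in Sst-negative nuclei, ratio 2.91 (2.70 to 3.14), but 1.89 without set 4; Grm8 was at 475 CPM in SST nuclei, against 211 CPM in Sst-negative nuclei, ratio 2.25 (2.02 to 2.50), but 1.61 without set 4. Cacng3 at 2.47 (2.14 to 2.85) came to 1.87 without set 1, and Cacng4 at 2.19 (1.70 to 2.80) to 1.99 without set 4, while Grm7, a presynaptic autoreceptor, was at 1995 CPM in SST nuclei, against 909 CPM in Sst-negative nuclei, ratio 2.19 (2.08 to 2.31).

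Against Adarb2 nuclei, the CGE-type class, 10 of 32 glutamate receptor genes were at least 2-fold higher and 3 lower, beside 2.46% and 7.55% of all genes. Of the AMPA receptor subunits, Gria1, Gria3 and Gria4 were past 2-fold there and Gria2 was not. Gria1 was at 5579 CPM in SST nuclei, against 2339.7 CPM in Adarb2 nuclei, ratio 2.38 (2.31 to 2.46), Gria3 at 1351 CPM in SST nuclei, against 561 CPM in Adarb2 nuclei, ratio 2.41 (2.26 to 2.56). Gria4 was at 2459.9 CPM in SST nuclei, against 1075 CPM in Adarb2 nuclei, ratio 2.29 (2.19 to 2.40). Each was higher in SST nuclei in 6 of 6 sets. Against excitatory nuclei Gria4 was at 2459.9 CPM in SST nuclei, against 424 CPM in excitatory nuclei, ratio 5.80 (5.56 to 6.04), whereas Gria2, the subunit that makes AMPA receptors impermeable to calcium, was at 1666 CPM in SST nuclei, against 3479 CPM in excitatory nuclei, ratio 0.479 (0.457 to 0.502), or 0.521 without set 4. Grik1, a kainate receptor subunit, was at 2367 CPM in SST nuclei, against 39.5 CPM in excitatory nuclei, ratio 59.9 (56.2 to 63.9). Grin2a, an NMDA receptor subunit, was at 1368 CPM in SST nuclei, against 3751 CPM in excitatory nuclei, ratio 0.365 (0.346 to 0.384). In that comparison 13 of 32 glutamate receptor genes were at least 2-fold higher and 4 lower, beside 10.0% and 12.8% of all genes tested.

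Of 8 genes of acetylcholine receptors and their partners, 4 were at least 2-fold higher than in MGE-type nuclei without Sst, beside 1.73% of all genes, and none was lower to that degree. Chrm3, a muscarinic receptor coupled to Gq, was at 524, 1120.0, 616, 1683, 1753 and 1620.3 CPM by set in SST nuclei, against 464, 427, 373, 310.2, 408 and 721 CPM in MGE-type nuclei without Sst, with a ratio of 2.64 (2.45 to 2.83). SST nuclei were higher in 6 of 6 sets, with overlapping ranges. Lypd6b and Lypd6 encode membrane-anchored proteins that bind nicotinic receptors: Lypd6b was at 231 CPM in SST nuclei, against 66.5 CPM in Sst-negative nuclei, ratio 3.47 (2.94 to 4.10). Lypd6 was at 157 CPM in SST nuclei, against 65.9 CPM in Sst-negative nuclei, ratio 2.38 (1.97 to 2.87), or 1.96 without set 4. Chrna7, the alpha7 nicotinic subunit, was at 179 CPM in SST nuclei, against 81.4 CPM in Sst-negative nuclei, ratio 2.20 (1.85 to 2.62), but 1.95 without set 2 and 1.86 without set 4. Chrna2, a nicotinic subunit used as a marker of O-LM cells in mice, had no UMI in the 106 SST nuclei, which allows up to 3 counts (2.80 CPM).

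Of 17 GABA receptor genes none was at least 2-fold higher and 3 were lower to the same degree than in MGE-type nuclei without Sst, beside 1.73% and 4.34% of all genes, and their median log2 ratio was -0.31 beside -0.05. Gabrg3, a gamma subunit, was at 345, 921, 1009.5, 281, 721 and 638 CPM by set in SST nuclei, against 2223, 3546, 3469, 4020.2, 2620.0 and 3436 CPM in Sst-negative nuclei. The ranges did not overlap, and the ratio was 0.210 (0.195 to 0.226). Gabrd, the delta subunit of extrasynaptic receptors that carry tonic inhibition, had 6 UMIs in the SST class, at 5.61 CPM in SST nuclei, against 31.9 CPM in Sst-negative nuclei, ratio 0.176 (0.0636 to 0.391), or 0.0460 without set 3. Gabra4, its frequent partner, was at 50.5 CPM in SST nuclei, against 109.8 CPM in Sst-negative nuclei, ratio 0.459 (0.341 to 0.608), but 0.578 without set 4 and 0.286 without set 3. The 7 tested genes of GABA synthesis and transport outside the rule had no member past 2-fold in either direction between the MGE-type classes. Against excitatory nuclei 4 of these 7 were at least 2-fold higher and none lower, beside 10.0% and 12.8% of all genes. Slc32a1, the vesicular GABA transporter, was among the 4, at 29.0 CPM in SST nuclei, against 1.11 CPM in excitatory nuclei, ratio 26.1 (15.9 to 42.4).

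**Figure D4:**
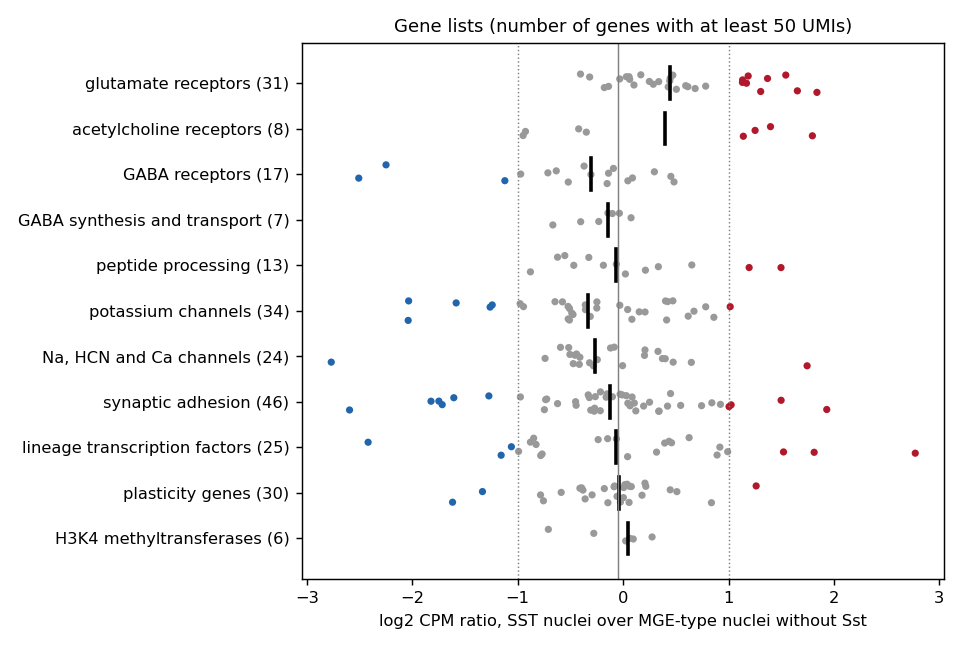
Log2 ratio of CPM in SST nuclei to MGE-type nuclei without Sst (horizontal axis) for each tested gene (points) of 11 gene lists, with a bar at each list's median. The glutamate receptor list has its median at 0.45 with no gene below the 2-fold line on the low side, and the GABA receptor list has its median at -0.31. Isl1, a lineage transcription factor with no UMI in SST nuclei, has no finite ratio and is not drawn.

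Of 9 monoamine receptor genes 1 was at least 2-fold higher and 2 lower, beside 1.73% and 4.34% of all genes. Drd2, the dopamine D2 receptor, was at 26.2 CPM in SST nuclei, against 6.69 CPM in Sst-negative nuclei, ratio 3.91 (2.29 to 6.62), from 14 SST nuclei, and 2.40 without set 4. The lower genes were Htr2c, given above, and Adrb1, the beta1 adrenergic receptor, at 5.61 CPM in SST nuclei, against 15.7 CPM in Sst-negative nuclei, ratio 0.358 (0.128 to 0.813) on 6 UMIs.

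Of 34 potassium channel genes 1 was at least 2-fold higher and 5 lower to the same degree than in MGE-type nuclei without Sst, beside 1.73% and 4.34% of all genes. The higher one, Kcnd3, which encodes the A-type channel Kv4.3, was at 542 CPM in SST nuclei, against 268 CPM in Sst-negative nuclei, ratio 2.02 (1.83 to 2.23), but 1.94 without set 2 and 1.80 without set 4. Kcnh7, an ERG-type channel, was at 334 CPM in SST nuclei, against 1003 CPM in Sst-negative nuclei, ratio 0.333 (0.299 to 0.371). Kcnh1, of the EAG type, was at 36.4 CPM in SST nuclei, against 149 CPM in Sst-negative nuclei, ratio 0.244 (0.172 to 0.336), or 0.145 without set 3. Kcnip2 and Kcnip4 encode proteins that bind Kv4 channels. Kcnip2 was at 16.8 CPM in SST nuclei, against 69.2 CPM in Sst-negative nuclei, ratio 0.243 (0.142 to 0.390). Kcnip4 was at 1345 CPM in SST nuclei, against 3227 CPM in Sst-negative nuclei, ratio 0.417 (0.395 to 0.440). Kcnip4 was lower in 5 of 6 sets, and its ratio was 0.177 without set 3 and 0.522 without set 2. Kcnn3, a small-conductance calcium-activated channel, was lower on 14 UMIs, at 0.423 (0.226 to 0.730), but 0.527 without set 2 and 0.516 without set 4.

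Kcnc2, which encodes the fast Kv3.2 channel, did not reach 2-fold between the MGE-type classes, at 2639 CPM in SST nuclei, against 2492 CPM in Sst-negative nuclei, ratio 1.06 (1.02 to 1.10). Against Adarb2 inhibitory nuclei it was at 2639 CPM in SST nuclei, against 888 CPM in Adarb2 nuclei, ratio 2.97 (2.84 to 3.11), and against excitatory nuclei at 2639 CPM in SST nuclei, against 448 CPM in excitatory nuclei, ratio 5.89 (5.66 to 6.13). Kcnmb2, a beta subunit of BK channels, was at 1746 CPM in SST nuclei, against 427 CPM in Adarb2 nuclei, ratio 4.09 (3.85 to 4.35).

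Of 46 adhesion and synapse-organizing genes 4 were at least 2-fold higher than in MGE-type nuclei without Sst and 6 lower by as much, beside 1.73% and 4.34% of all genes; 2 of the 4 fell below 2-fold without single sets. Erbb4, the neuregulin receptor best known from parvalbumin basket cells, was at 1873, 2709, 3727, 3016, 2726 and 540.1 CPM by set in SST nuclei, against 5855, 9740.5, 12376, 11848, 7284 and 7495 CPM in Sst-negative nuclei. The ranges did not overlap, with a ratio of 0.304 (0.293 to 0.315), yet 94 of 106 SST nuclei held an Erbb4 UMI. The other 7 markers of parvalbumin basket cells together came to 1464 CPM in SST nuclei, against 1518 CPM in MGE-type nuclei without Sst (1278 to 1753 CPM by set in SST nuclei and 942 to 1879 CPM in Sst-negative nuclei), with Cox6a2 at 0 in SST nuclei. Of the 7 basket markers tested, Erbb4 included, 3 were at least 2-fold lower and 1 (Rbp4) higher, beside 4.34% and 1.73% of all genes. Cdh9, a cadherin, was at 676 CPM in SST nuclei, against 239 CPM in Sst-negative nuclei, ratio 2.83 (2.58 to 3.10). Cdh12, another, was at 489.6 CPM in SST nuclei, against 1491 CPM in Sst-negative nuclei, ratio 0.328 (0.300 to 0.359). Cdh13 was at 1068 CPM in SST nuclei, against 525 CPM in Sst-negative nuclei, ratio 2.03 (1.90 to 2.18), but below 2-fold without set 1 (1.94) or set 4 (1.87), and Adgrl2, a latrophilin, at 2.01 (1.71 to 2.35), below 2-fold without set 2, 4 or 6 (1.86, 1.98 and 1.97). Igsf11, an adhesion protein that binds AMPA receptors, was at 137 CPM in SST nuclei, against 486 CPM in Sst-negative nuclei, ratio 0.283 (0.238 to 0.334), and Cntnap4, Cntnap5b and Nxph2 were the other lower genes, at ratios of 0.413 (0.375 to 0.455), 0.298 (0.249 to 0.353) and 0.165 (0.0657 to 0.347).

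Of 25 transcription factor genes of interneuron lineage 3 were at least 2-fold higher (Npas1, Npas3 and Tshz1) and 4 lower by as much (Nfib, Nfix, Bcl11b and Isl1), beside 1.73% and 4.34% of all genes. Tshz1, a zinc finger homeobox factor, was at 73.8 CPM in SST nuclei, against 21.01 CPM in Sst-negative nuclei, ratio 3.51 (2.60 to 4.73). Nfib, a nuclear factor I gene that is broadly expressed in hippocampal neurons, was at 28.7, 48.7, 179.9, 17.5, 156 and 0 CPM by set in SST nuclei, against 369, 473, 398, 483, 375 and 657 CPM in MGE-type nuclei without Sst. Every SST value was below every value of the other class, and sets 3 and 5 held most of what there was. Its ratio was 0.187 (0.149 to 0.232), and 0.0846 without set 3. Nfix was at 23.4 CPM in SST nuclei, against 48.7 CPM in Sst-negative nuclei, ratio 0.479 (0.305 to 0.724), but at 0.539, 0.559, 0.563 and 0.510 without set 1, 2, 4 or 6 and 0.204 without set 3. Bcl11b was at 42.0 CPM in SST nuclei, against 93.8 CPM in Sst-negative nuclei, ratio 0.448 (0.323 to 0.609), or 0.291 without the 5 members richest in oligodendrocyte UMIs, and Isl1 had no UMI in SST nuclei, against 9.74 CPM in Sst-negative nuclei, at least 3.48-fold lower by the same limit.

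The genes tied to the study's title showed no 2-fold difference. Setd1b, a histone H3 lysine 4 methyltransferase, was at 19.6 CPM in SST nuclei, 19.3 in MGE-type nuclei without Sst, 19.8 in Adarb2 inhibitory nuclei and 15.6 in excitatory nuclei. Its ratio to the MGE-type nuclei without Sst was 1.02 (0.603 to 1.64), an interval that includes 1. None of the 6 genes of this enzyme family was past 2-fold in any of the 3 comparisons. Among all genes 1.73% were higher and 4.34% lower against MGE-type nuclei without Sst. The shares were 2.46% and 7.55% against Adarb2 nuclei and 10.0% and 12.8% against excitatory nuclei. A count of none in 6 genes cannot be told from these shares. Of 30 plasticity genes tested against Sst-negative nuclei, 1 was at least 2-fold higher and 2 lower, beside 1.73% and 4.34% of all genes. Cplx2, a complexin of vesicle release, was the higher one, at 47.6 CPM in SST nuclei, against 19.9 CPM in Sst-negative nuclei. Its ratio was 2.40 (1.68 to 3.38). Without the 2 members of over 30000 UMIs it was 1.96, and without the 5 richest in oligodendrocyte UMIs 1.92. Mef2c, an activity-dependent transcription factor, was at 321 CPM in SST nuclei, against 811 CPM in Sst-negative nuclei, ratio 0.396 (0.354 to 0.443). Prkca, a protein kinase C, was at 229.8 CPM in SST nuclei, against 706 CPM in Sst-negative nuclei, ratio 0.326 (0.285 to 0.371).

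Against Adarb2 inhibitory nuclei, 245 of 9972 genes (2.46%) were at least 2-fold higher and 753 (7.55%) lower to the same degree in SST nuclei. The higher end was led by Crhbp, at 55.1 CPM in SST nuclei, against 1.19 CPM in Adarb2 nuclei, ratio 46.2 (21.1 to 119.9), Gna14, a G protein alpha subunit of the Gq family, at 56.1 CPM in SST nuclei, against 2.56 CPM in Adarb2 nuclei, ratio 21.9 (12.3 to 41.6). Utrn, encoding utrophin, was at 602 CPM in SST nuclei, against 55.9 CPM in Adarb2 nuclei, ratio 10.8 (9.41 to 12.3). Pappa, a protease that frees insulin-like growth factor, was at 135 CPM in SST nuclei, against 13.3 CPM in Adarb2 nuclei, ratio 10.1 (7.63 to 13.5), or 5.89 without set 4. Lypd6, Lypd6b, Npy and Eya1, named above, completed the 8, with ratios of 11.2, 9.34, 12.03 and 9.18; without set 1 that of Lypd6 was 23.6, that of Lypd6b 19.2 and that of Npy 3.63. Crhbp, Gna14, Lypd6, Lypd6b, Npy and Eya1 were also at least 2-fold higher than in MGE-type nuclei without Sst, beside 1.73% of all genes. Both comparisons use the same SST nuclei, so this overlap is not independent evidence.

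Of 8 CGE markers tested outside the rule 6 were at least 2-fold lower in SST nuclei and 1 (Reln) was higher, beside 7.55% and 2.46% of all genes; of the 6, Cck came to 0.559 without set 1. Vip, the vasoactive intestinal peptide gene, had 1 UMI in the SST class, at 0.934 CPM in SST nuclei, against 40.9 CPM in Adarb2 nuclei, ratio 0.0228 (0.000576 to 0.128). Cadps2, which primes dense-core vesicles, was at 26.2 CPM in SST nuclei, against 419 CPM in Adarb2 nuclei, ratio 0.0625 (0.0414 to 0.0905), or 0.0313 without the 5 members richest in oligodendrocyte UMIs. Ntng1, netrin-G1, was at 95.3 CPM in SST nuclei, against 935 CPM in Adarb2 nuclei, ratio 0.102 (0.0830 to 0.124). Htr2c was at 17.8 CPM in SST nuclei, against 226 CPM in Adarb2 nuclei, ratio 0.0786 (0.0472 to 0.123). Slc24a4, a sodium-calcium-potassium exchanger, was at 3.74 CPM in SST nuclei, against 75.9 CPM in Adarb2 nuclei, Ror1, a receptor tyrosine kinase, at 6.54 CPM in SST nuclei, against 93.2 CPM in Adarb2 nuclei, Egfr at 4.67 CPM in SST nuclei, against 96.8 CPM in Adarb2 nuclei and Frem1 at 1.87 CPM in SST nuclei, against 85.7 CPM in Adarb2 nuclei. Prox1, a homeobox factor of CGE interneurons and granule cells, was at 15.9 CPM in SST nuclei, against 159 CPM in Adarb2 nuclei, ratio 0.0997 (0.0578 to 0.160), or 0.0177 without set 3. Without set 3 the ratio of Ror1 was 0.0438, that of Frem1 0.0397 and Slc24a4 had no UMI left; Frem1 had none without set 2 and a ratio of 0.0335 without set 4, and Egfr was at 0.0125 without set 2 and 0.0746 without set 4. Reln was at 868 CPM in SST nuclei, against 354 CPM in Adarb2 nuclei, ratio 2.45 (2.27 to 2.65), but 1.76 without set 4 and 3.76 without set 3. The 10 CGE markers other than Adarb2, which the rule used, came to 993 CPM in SST nuclei, 868 CPM of it Reln, against 805 CPM in Adarb2 inhibitory nuclei, with Htr3a and Sncg at 0 in SST nuclei.

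Against excitatory nuclei, 1317 of 13119 genes (10.0%) were at least 2-fold higher and 1675 (12.8%) lower to the same degree. Maf, a bZIP factor of MGE interneurons, was at 423 CPM in SST nuclei, against 3.12 CPM in excitatory nuclei, ratio 136 (111 to 167). Kcnmb2 was at 1746 CPM in SST nuclei, against 14.2 CPM in excitatory nuclei, ratio 123 (112 to 136), Lypd6b at 231 CPM in SST nuclei, against 2.22 CPM in excitatory nuclei, ratio 104 (81.0 to 134), Crhbp at 55.1 CPM in SST nuclei, against 0.465 CPM in excitatory nuclei, ratio 119 (69.0 to 214). Igf1, insulin-like growth factor 1, was at 72.9 CPM in SST nuclei, against 0.697 CPM in excitatory nuclei, ratio 105 (66.7 to 169). Igf1 came from 30 of the SST nuclei, and its ratio was 183 without set 2 and 52.8 without set 4; that of Lypd6b was 159.7 without set 2. These genes were a lineage factor, a channel subunit, a nicotinic receptor partner and secreted factors or binding proteins.

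At the low end, Sv2b, a synaptic vesicle glycoprotein, was at 8.41 CPM in SST nuclei, against 404 CPM in excitatory nuclei, ratio 0.0208 (0.00952 to 0.0395), or 0.0134 without set 3, Ndst4, a heparan sulfate enzyme, at 16.8 CPM in SST nuclei, against 262 CPM in excitatory nuclei, ratio 0.0642 (0.0380 to 0.102). Tafa1, a secreted chemokine-like protein, was at 135 CPM in SST nuclei, against 2597 CPM in excitatory nuclei, ratio 0.0522 (0.0440 to 0.0614), or 0.0293 without set 3. Ror1, Slc24a4 and Cadps2 were low in this comparison also, with ratios of 0.0343, 0.0354 and 0.0646; without set 3 that of Ror1 was 0.0209 and Slc24a4 had no UMI left. Of 32 plasticity genes 14 were at least 2-fold lower and 2 (Rph3a and Cplx1) higher, beside 12.8% and 10.0% of all genes. Rph3a, a vesicle protein, had a ratio of 2.12 (1.81 to 2.47) but 1.95 without set 1 and 1.95 without set 2. Of 16 immediate early genes 9 were at least 2-fold lower and none higher, beside 12.8% and 10.0% of all genes. Their median log2 ratio was -1.25 beside 0.08 for all genes. Bdnf, the neurotrophin, had 1 UMI in the SST class, at 0.934 CPM in SST nuclei, against 39.3 CPM in excitatory nuclei, ratio 0.0238 (0.000602 to 0.133). Camk2a, the kinase of long-term potentiation, was at 232 CPM in SST nuclei, against 1029 CPM in excitatory nuclei, ratio 0.225 (0.198 to 0.255). Homer1, a scaffold with an activity-induced short form, was at 93.4 CPM in SST nuclei, against 192 CPM in excitatory nuclei, ratio 0.487 (0.396 to 0.593), but 0.516 without set 3 and 0.534 without set 4. Arc had no UMI in SST nuclei, against 14.1 CPM in excitatory nuclei, at least 5.03-fold lower with 3 counts as the limit.

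Few members held much of what remained of several low genes. Without the 5 members richest in oligodendrocyte UMIs, 114 of 358 gene values at least 2-fold apart over the 3 comparisons left their counting interval and 244 stayed within it, and without the 2 members of over 30000 UMIs 82 of 361 left it; none turned to the other side of 1. Against MGE-type nuclei without Sst, the ratio of Cacna2d1 was 0.0503 without the 5 and 0.0741 without the 2, that of Nfib 0.0703 and 0.0872, and that of Zfhx3 0.0157 and 0.0253. In the same order Kcnip4 came to 0.191 and 0.211, Gabra4 to 0.278 and 0.297, Gabrd to 0.0342 and 0.0990 and Nfix to 0.157 and 0.195. These 7 genes were lower still in the SST nuclei without those members. Pnoc, by contrast, lost its 2-fold difference, at 0.553 without the 5 and 0.534 without the 2. Without the 5 alone, Kcnh1 was at 0.161 and Zbtb7c at 0.0491, and without the 1 member that shared its barcode Htr2c was at 0.0574. Against Adarb2 inhibitory nuclei, Prox1 came to 0.0137 without the 5 and 0.0264 without the 2, and Ror1 to 0.0352 and 0.0339. Against excitatory nuclei, Sv2b came to 0.00811 and 0.0104, Tafa1 to 0.0240 and 0.0251, and Ror1 to 0.0172 and 0.0165.

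**Figure D5:**
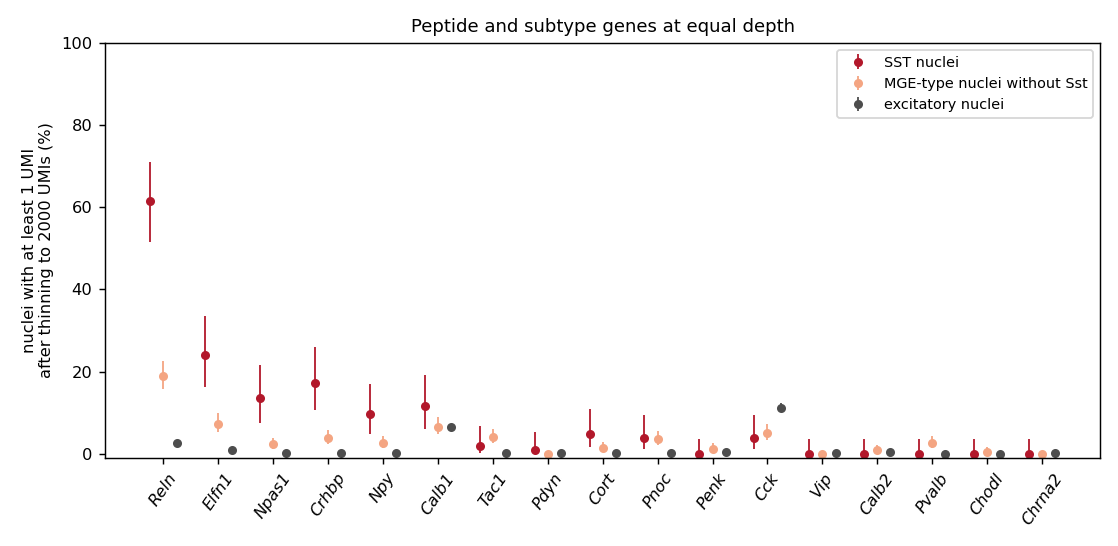
Share of nuclei with at least 1 UMI (percent, with exact 95% intervals) of 17 genes after thinning each nucleus to 2000 UMIs, in 104 SST nuclei, 558 MGE-type nuclei without Sst and 3214 excitatory nuclei. Reln was found in 61.5% of SST nuclei, 19.0% of MGE-type nuclei without Sst and 2.68% of excitatory nuclei, and Chodl and Chrna2 in none of the SST nuclei.

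Within the SST class, genes used to tell its subtypes were found in different fractions of nuclei. Before thinning, Reln had a UMI in 81 of 106 nuclei, Elfn1 in 57, Crhbp in 37, Npas1 in 37, Npy in 28 and Calb1 in 24. The share for Calb1, encoding calbindin, was 22.6%, near the 21.1% of excitatory nuclei, which express it. Nos1, the neuronal nitric oxide synthase found in long-range SST cells, had a UMI in 11 nuclei (10.4%), below the 23.6% of excitatory nuclei. These shares were taken before thinning, and excitatory nuclei were deeper, at a median of 10449 against 8010 UMIs. Against MGE-type nuclei without Sst the ratio of Nos1 was 0.264. Chodl, a marker of the same long-range cells, had a UMI in none of 106 nuclei, which allows up to 3 counts. Reln and Elfn1 overlapped in 51 nuclei, which is 63.0% of those with Reln and 89.5% of those with Elfn1. Npy and Reln overlapped in 23 nuclei, 82.1% of those with Npy and 28.4% of those with Reln. These overlaps are counts of nuclei that differ in depth, and the part of depth in them was not tested.

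SST nuclei with at least 2 Npy UMIs (13 nuclei, median 7683 UMIs) were set against those with none (78 nuclei, median 7773.5 UMIs). Of the 13, 8 came from set 1, 2 each from sets 3 and 4 and 1 from set 5, so the split follows the barcode set and the part of the set in these differences was not tested. Of 3256 genes 125 (3.84%) were at least 2-fold higher and 286 (8.78%) lower to the same degree in nuclei with Npy. Bcl11a, a zinc finger transcription factor, was at 736 CPM in nuclei with Npy, against 219 CPM in those without, ratio 3.36 (2.56 to 4.38), present in 11 of 13 and 39 of 78 nuclei. Nap1l5 was at 312 CPM in nuclei with Npy, against 67.6 CPM in those without, ratio 4.61 (2.94 to 7.16). Man1a, a Golgi mannosidase, was at 736 CPM in nuclei with Npy, against 223 CPM in those without, ratio 3.30 (2.52 to 4.30). Grm8, at 1558 CPM in nuclei with Npy, against 321 CPM in those without, ratio 4.86 (3.99 to 5.91), came from 6 of the 13 nuclei, and Atp2b4, a plasma membrane calcium pump, at 199 CPM in nuclei with Npy, against 33.8 CPM in those without, ratio 5.89 (3.23 to 10.7), from 5.

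Lower in the nuclei with Npy were Zfp804b at 26.0 CPM in nuclei with Npy, against 830.3 CPM in those without, ratio 0.0313 (0.00644 to 0.0918), Trpm3, a calcium-permeable channel, at 43.3 CPM in nuclei with Npy, against 1018 CPM in those without, ratio 0.0425 (0.0138 to 0.0996). Dab1, the adaptor of reelin signalling, was at 104 CPM in nuclei with Npy, against 1181 CPM in those without, ratio 0.0880 (0.0453 to 0.154). Sorcs3, a sorting receptor, and Hs3st4, a heparan sulfate enzyme, had no UMI in the 13 nuclei with Npy, and those without had 284 and 228 CPM. Reln, at 866 CPM in nuclei with Npy, against 912 CPM in those without, ratio 0.950 (0.763 to 1.17), differed by less than counting error.

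SST nuclei with at least 2 Reln UMIs (66 nuclei, median 9683.5 UMIs) were set against those with none (25 nuclei, median 7123 UMIs), and both came from all 6 sets. Of 3278 genes 189 (5.77%) were at least 2-fold higher and 104 (3.17%) lower to the same degree in nuclei with Reln. Rgs6, a regulator of G-protein signalling, was at 537 CPM in nuclei with Reln, against 36.7 CPM in those without, ratio 14.6 (6.66 to 40.1), present in 38 of 66 and 4 of 25 nuclei. Frmd4b, a cell polarity scaffold, was at 701 CPM in nuclei with Reln, against 97.8 CPM in those without, ratio 7.17 (4.37 to 12.6), present in 65 of 66 and 13 of 25. Shisa6 was at 1320.4 CPM in nuclei with Reln, against 275 CPM in those without, ratio 4.80 (3.56 to 6.62), present in 64 and 9, Trpm3 at 1048 CPM in nuclei with Reln, against 97.8 CPM in those without, ratio 10.7 (6.55 to 18.8). Adcy2, an adenylyl cyclase, was at 586 CPM in nuclei with Reln, against 79.5 CPM in those without, ratio 7.37 (4.26 to 14.0). These 5 genes were found in a larger fraction of the nuclei with Reln as well as at a higher level. The nuclei with Reln were also deeper, and the part of depth in these fractions was not tested. Elfn1, at 203 CPM in nuclei with Reln, against 67.3 CPM in those without, ratio 3.02 (1.64 to 6.18), was also higher. Reln chose these nuclei, so its own level is no result here.

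Lower in the nuclei with Reln were Fstl4, a follistatin-like protein, at 30.6 CPM in nuclei with Reln, against 917 CPM in those without, ratio 0.0333 (0.0205 to 0.0519), present in 7 of 66 and 7 of 25 nuclei, and Slit2, an axon guidance ligand that is also a basket cell marker, at 21.3 CPM in nuclei with Reln, against 508 CPM in those without, ratio 0.0419 (0.0229 to 0.0721), present in 6 and 14. Sorcs3 was at 73.1 CPM in nuclei with Reln, against 942 CPM in those without, ratio 0.0776 (0.0560 to 0.106), Caln1, a calcium-binding protein of the trans-Golgi network, at 73.1 CPM in nuclei with Reln, against 739.9 CPM in those without, ratio 0.0987 (0.0704 to 0.137). Prr16 was at 41.2 CPM in nuclei with Reln, against 428 CPM in those without, ratio 0.0962 (0.0609 to 0.149). With Calb1, 9 nuclei had at least 2 UMIs, and with Pvalb none had, so neither could be used for such a split.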

How the data were processed

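Single-nucleus RNA-seq (10x Genomics 3' v3.1 chemistry) had been made of hippocampal nuclei, per the labels' protocols. The deposited values are UMI counts per gene and barcode in 1 matrix, which the authors made with Cell Ranger 4.0.0 against mm10/GRCm38, per the file headers and the submitters' processing notes; the counting of intronic reads is not given in the sources used here. Members and the 27 gene lists (421 genes) were chosen with earlier results of these data known, and none of the lists is independent evidence.

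From the counts, UMIs were summed per class and scaled to CPM (per 1000000 UMIs). A gene was compared where both classes together had at least 50 UMIs and called at a 2-fold ratio. With 1 pooled sample no p-value was computed. Genes were named by a fixed rule: those on the same side of 1 in each of the 2 barcode sets where both classes had 20 or more nuclei, unnamed gene models left out, the 12, 8 and 6 most extreme at either end by the near bound of the interval in the 3 comparisons, the 5 at either end in the splits, and members of the lists. Shares are given also after thinning each nucleus to 2000 UMIs, which left out shallower nuclei (104 SST, 558 MGE-type without Sst, 580 Adarb2 inhibitory and 3214 excitatory nuclei remained). The ratio script was tested on simulated counts. Scrublet was run per barcode set in scanpy 1.11.5, with numpy 2.4.6, scipy 1.17.1 and pandas 2.3.3 under Python 3.11.15. Gene positions are from GENCODE M21, which matched 24715 of 24837 gene IDs, and upstream sequences from RefSeq, build GRCm38.p6. Genes that overlap others may share reads. Results on some genes are not reported here.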

Additional observations from a re-analysis of the deposited data

How the results depend on the processing

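The number of SST nuclei and of genes past 2-fold depended on the thresholds. The class was 1.39% of barcodes with an Sst minimum of 1 UMI and 0.405% with a minimum of 3, and 0.623 to 0.718% without any 1 barcode set. Without any 1 set, 139 to 174 genes were at least 2-fold higher and 357 to 620 lower than in MGE-type nuclei without Sst, 201 to 266 higher and 637 to 919 lower than in Adarb2 inhibitory nuclei, and 1222 to 1327 higher and 1553 to 1904 lower than in excitatory nuclei. An Sst minimum of 3 UMIs gave 783 lower genes against MGE-type nuclei without Sst and 1172 against Adarb2 inhibitory nuclei. The median over the sets where both classes had 20 or more nuclei gave 352 higher and 1339 lower genes against MGE-type nuclei without Sst, 576 and 1732 against Adarb2 inhibitory nuclei, and 4141 lower against excitatory nuclei. With 10 or more nuclei, chosen after seeing the data, it gave 1088, 1387 and 4019 lower genes against these classes in turn. Thinning to 1000 UMIs gave 65 higher and 200 lower, 110 and 292, and, against excitatory nuclei, 743 higher genes. Means per nucleus without scaling gave 272 higher genes against MGE-type nuclei without Sst. A gene minimum of 10 UMIs gave 517 and 1271, 603 and 1665, and 2052 and 2881 genes in the 3 comparisons, and one of 200 UMIs gave 72 and 135, 114 and 304, and 690 and 1034; fewer or more genes enter the comparison by construction. Leaving out the 5 members richest in oligodendrocyte UMIs, also chosen after seeing the data, gave 635 lower genes against MGE-type nuclei without Sst. The cause of the other changes was not tested. Of single gene values at least 2-fold apart, 8 crossed to the other side, all by falling to 0 on few UMIs: Chrna4 with an Sst minimum of 3, Tacr1, Hpse, Pcdh8 and Chrna4 in the median over sets with 20 or more nuclei, and Hpse and Pcdh8 in that with 10 or more, all against excitatory nuclei, and Tac1 against Adarb2 inhibitory nuclei. Many more gene values left their counting interval without crossing, 1438 over the 21 settings, while 5537 stayed within it. The most did so in the median over sets with 20 or more nuclei, 227 against 127 that stayed. Thinning to 1000 UMIs moved 152 and left 68, and an Sst minimum of 3 UMIs moved 154 and left 199. Depth limits the report to genes with many UMIs over the SST nuclei. No paired analysis was possible because the labels give 1 group and the matrix carries no replicate numbers. A ratio stratified by barcode set, added after seeing the data, gave 192 higher and 387 lower genes against MGE-type nuclei without Sst, 291 and 714 against Adarb2 inhibitory nuclei, and 1296 and 1691 against excitatory nuclei; of the genes named above against MGE-type nuclei without Sst it took Cartpt (0.549), Kcnn3 (0.542), Nfix (0.507), Adgrl2 (1.89), Kcnd3 (1.97) and Cdh13 (1.97) short of 2-fold.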
